A study of Mus musculus with 17 samples.

Results

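The genes described here are 10 members of the NF-kB system in mouse kidney, chosen by gene symbol from the deposited gene table, and all 10 were found among its 42794 complete gene lines. They are the subunits Rela, Relb, Nfkb1 and Nfkb2, the inhibitors Nfkbia and Nfkbie, the feedback regulator Tnfaip3, the target genes Birc3 and Icam1, and the receptor Tnfrsf1b. RNA of whole kidney was sequenced in 17 libraries, 7 labelled Gcgr shRNA, 6 labelled Ctr shRNA and 4 labelled control. The study asked what glucagon does to lipid synthesis in proximal tubule cells, by a short hairpin RNA (shRNA) against the glucagon receptor gene Gcgr that was meant to act in those cells alone.

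The libraries labelled Gcgr shRNA carry that genotype and the abbreviation DKD, used for diabetic kidney disease, in their titles. The Ctr shRNA libraries carry DKD and the word Vehicle in their titles and Ctr shRNA as their genotype, so a control hairpin and a plain vehicle cannot be told apart for them. The control libraries are labelled WT and NC. The sources used here do not give how disease was induced, the strain, age and sex of the mice, how the hairpin was delivered or which promoter drove it. A difference between either shRNA group and control therefore holds the disease label and the treatment together. Nothing in the labels says that each library is from a separate animal, and p-values then measure only the spread between libraries, which may be technical.

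NF-kB is a family of dimeric transcription factors that carry a Rel homology domain and are held in the cytoplasm of resting cells by inhibitor proteins. In the canonical arm, receptors for tumour necrosis factor, interleukin 1 or microbial products activate a kinase complex that marks the inhibitor for degradation, and dimers that contain RelA enter the nucleus. In the noncanonical arm, receptors such as those for lymphotoxin and TWEAK lead to processing of the Nfkb2 product p100 to p52, which pairs with RelB. Many of the genes induced are themselves parts of the system, such as Nfkbia, Tnfaip3, Nfkb2 and Relb, and in kidney the pathway is known for inducing adhesion molecules and chemokines in injured tubules, endothelium and leukocytes.

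NF-kB binding letters close to the start of the member genes are shown first, because several members are known to be targets of the factor that they encode or restrain. RefSeq promoter windows of GRCm38.p6, 250 bases before and 50 after an annotated start, were at hand for 8 of the 10 genes (Relb and Nfkb1 are named only). A script searched both strands for the 10-letter NF-kB consensus and for the 9-letter word GGAAATTCC. In the 4 windows below, capitals mark the matches of either motif, and each sequence runs 5′ to 3′ on the strand of its gene. The windows are Icam1 (chr9:21015690-21015989, plus strand), the first of 3 Nfkb2 windows (chr19:46304487-46304786, plus strand), Nfkbia (chr12:55492598-55492897, minus strand) and the first of 2 Tnfaip3 windows (chr10:19015361-19015660, minus strand).
Icam1: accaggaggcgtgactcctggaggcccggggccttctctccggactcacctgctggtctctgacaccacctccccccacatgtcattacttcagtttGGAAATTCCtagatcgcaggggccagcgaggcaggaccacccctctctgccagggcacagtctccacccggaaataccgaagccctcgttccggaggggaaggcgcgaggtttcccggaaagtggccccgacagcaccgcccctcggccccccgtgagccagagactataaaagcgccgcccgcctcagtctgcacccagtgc
Nfkb2: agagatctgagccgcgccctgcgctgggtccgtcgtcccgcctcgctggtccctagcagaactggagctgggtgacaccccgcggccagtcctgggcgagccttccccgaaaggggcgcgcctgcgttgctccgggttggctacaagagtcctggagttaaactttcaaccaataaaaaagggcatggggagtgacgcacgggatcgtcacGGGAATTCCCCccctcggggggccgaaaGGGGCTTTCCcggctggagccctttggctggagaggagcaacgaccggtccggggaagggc
Nfkbia: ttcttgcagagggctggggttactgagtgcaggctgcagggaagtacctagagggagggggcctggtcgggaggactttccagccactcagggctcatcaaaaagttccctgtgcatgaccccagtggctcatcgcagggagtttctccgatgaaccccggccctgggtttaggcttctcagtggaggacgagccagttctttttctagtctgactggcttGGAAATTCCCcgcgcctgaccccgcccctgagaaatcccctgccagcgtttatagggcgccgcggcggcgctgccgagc
Tnfaip3: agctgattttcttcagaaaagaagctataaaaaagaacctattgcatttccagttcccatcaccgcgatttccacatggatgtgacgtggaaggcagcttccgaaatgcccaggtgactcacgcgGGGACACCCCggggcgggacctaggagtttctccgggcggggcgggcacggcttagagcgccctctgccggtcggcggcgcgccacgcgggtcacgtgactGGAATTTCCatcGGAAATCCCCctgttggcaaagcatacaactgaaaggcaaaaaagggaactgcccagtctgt

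The consensus was matched in the windows of 4 of the 8 genes, namely Nfkb2 (in each of its 3 windows), Nfkbia, Nfkbie and Tnfaip3. It was matched in 4.51% of all 32851 windows and in 6.21% of the 9330 tested genes that have a window. The word GGAAATTCC occurred in the windows of Icam1, Nfkbia and Tnfaip3, against 0.317% of all windows and 0.450% of tested genes with a window. In Icam1 it begins at position -153 from the start and is not itself a match of the consensus. In Nfkbia it begins at -29, where it overlaps the consensus match on the opposite strand, and in Tnfaip3 it begins at -24, on the minus strand relative to the gene and apart from both consensus matches. The windows of Rela, Birc3 and Tnfrsf1b held neither motif. A match is a description of these letters and not evidence that the factor binds there. The members and the word GGAAATTCC were chosen with earlier results of these data known, so these shares describe the windows and test nothing.

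Across the 17 libraries, 13997657 to 17107876 reads could be recovered per library from the steps of the deposited values, and 13279 genes reached an FPKM (fragments per kilobase of gene, normalised to the size of the library) of 1 in at least 4 libraries and were tested, all 10 members among them. Behind the members stood 55 reads in the thinnest case (Tnfrsf1b) to 1094 in the deepest (Rela). Gcgr averaged 13.02 ± 1.70 FPKM in the libraries labelled Gcgr shRNA, 9.74 ± 2.14 in Ctr shRNA and 20.8 ± 2.42 in control (SD, n = 7, 6 and 4). Relative to Ctr shRNA it was thus higher by 0.40 on the log2(FPKM + 1) scale where the label says Gcgr shRNA (two-sided exact permutation p = 0.00641), which goes against the label as whole-kidney RNA shows it, and no direction below is read as an effect of lower Gcgr. Ctr shRNA 20 stood apart, with 45.3 FPKM of the fat cell hormone Adipoq and 56.8 FPKM of the urothelial gene Upk3a, against at most 2.43 and 3.23 FPKM elsewhere. Gcgr shRNA 31 had the highest summed markers of macrophages, of T and natural killer cells and of neutrophils in its group. Where a call of a member changes when both are left out, that is given beside it.

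FPKM is a level per length, so levels can be set side by side between genes. Nfkbia was highest in all 3 groups, followed by Rela, Nfkb2 and Icam1 in that order, and Tnfaip3 was lowest in all 3. The ranges of Nfkbia and Rela overlapped in every group, so their order is not beyond the spread between libraries, while the ranges of Rela and Nfkb2 did not overlap in any group. Icam1 lay apart from the next gene below it in every group, and its range overlapped that of Nfkb2 in both shRNA groups but not in control. Relb was 5th of 10 in both shRNA groups and 6th in control, where Nfkb1 stood above it with overlapping ranges. The lower genes overlapped their neighbours, except Tnfaip3 below Nfkbie in Ctr shRNA and below Tnfrsf1b in control.

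**Figure D1:**
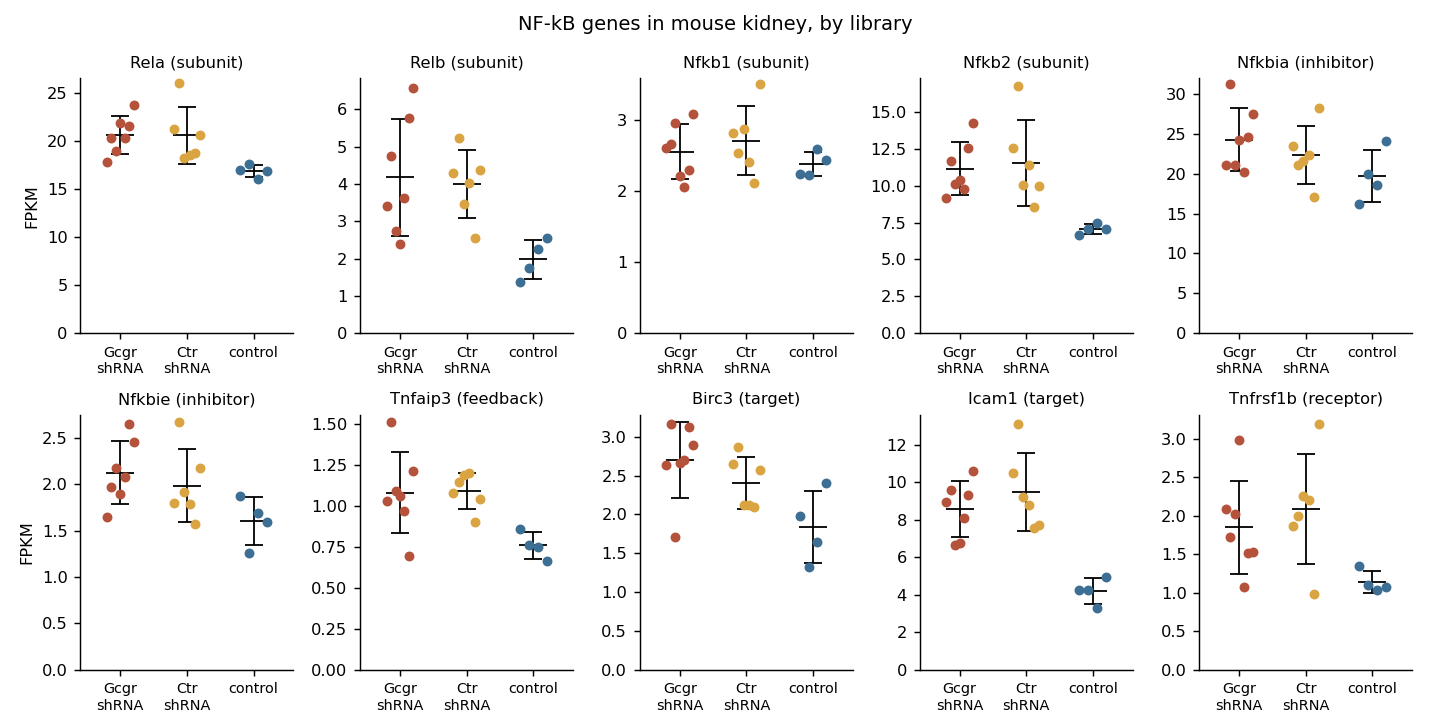
FPKM of each of the 10 genes in each library (points), with the mean and SD of each group (horizontal lines and bars). Icam1, Nfkb2 and, by a narrow margin, Rela of both shRNA groups lie wholly above control, while Nfkb1 and Nfkbia overlap with it.

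In the comparison of Ctr shRNA with control, 3 members rose, Icam1, Nfkb2 and Relb, and none fell, by limma with adjustment over all 13279 genes at a threshold of 0.05. Of all genes tested, 3.58% rose in that comparison. All 10 members had a difference above 0, with a median of 0.27 on the log2(FPKM + 1) scale, against a median of 0.0071 over all genes, of which 51.5% lay above 0. In 4 members (Rela, Nfkb2, Tnfaip3 and Icam1) every Ctr shRNA library lay above every control library, which held for 4.71% of all genes. Tnfaip3 had 0.663 to 0.859 FPKM in control, below the filter, and was tested only because shRNA libraries reached 1 FPKM. Its separation from control is therefore partly set by the filter and is given as a value only. An unadjusted p below 0.05 was found for 7 of the 10 members and for 23.4% of all genes.

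In the libraries labelled Gcgr shRNA against control, 2 members rose, Icam1 and Nfkb2, and none fell, where 1.42% of all genes rose. All 10 differences again lay above 0, with a median of 0.33 against -0.0049 over all genes. Rela, Nfkb2 and Icam1 were higher in every one of these libraries than in every control library, which held for 3.31% of all genes. Both comparisons use the same 4 control libraries, so the second is no independent repeat of the first. Without Ctr shRNA 20 and Gcgr shRNA 31, 3 members rose in each of them, Relb being the one added in the second.

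**Figure D2:**
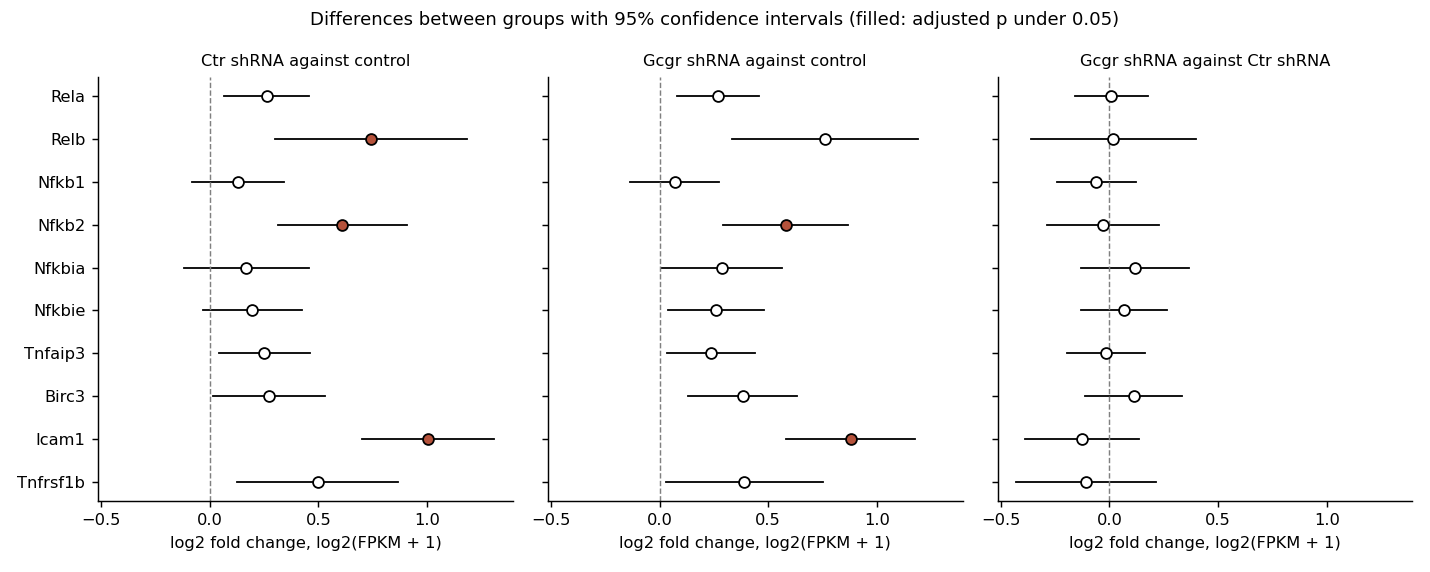
Difference of the group means in log2(FPKM + 1) for each gene (circles) with its 95% confidence interval (lines) in the 3 comparisons, filled where the adjusted p passed 0.05. On this scale Icam1 has the largest difference from control of the 10 genes in both shRNA groups, at 0.88 in the libraries labelled Gcgr shRNA and 1.00 in Ctr shRNA, and all 10 intervals between the shRNA groups span 0. By the ratio of FPKM means to control, Relb (2.11) stands above Icam1 (2.05) in the libraries labelled Gcgr shRNA.

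Among the subunits, Relb and Nfkb2 of the noncanonical arm had the larger differences and Rela and Nfkb1 of the canonical arm the smaller. Nfkb2, whose product p100 is both an inhibitor and the precursor of p52 (chromosome 19, 46304737 to 46312090 on GRCm38, plus strand, coordinates here and below as the table gives them), had 9.20, 10.4 and 14.3 FPKM in the libraries labelled Gcgr shRNA (lowest, median and highest). In Ctr shRNA the lowest, median and highest were 8.53, 10.7 and 16.8 FPKM, and the control libraries had 6.63, 7.04, 7.08 and 7.49 FPKM. The highest control library lay below the lowest library of either shRNA group, and the control libraries lay close together.

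Nfkb2 rose 1.53-fold in Ctr shRNA against control (0.61 ± 0.14 SE on the log2(FPKM + 1) scale, limma adjusted p = 0.0144), and the ratio of the FPKM means was 1.64. It rose 1.49-fold in the libraries labelled Gcgr shRNA against control (0.58 ± 0.14, limma adjusted p = 0.0348). The first call was lost without control 37 (limma adjusted p = 0.0523). The second was lost without any 1 of the libraries labelled Gcgr shRNA 15, 34 and 35 and control 37, 38, 39 and 41, with limma adjusted p between 0.0574 and 0.126, while its difference stayed between 0.52 and 0.62 with each library left out. Psd, on the opposite strand, shares 4 bases with Nfkb2 in the table and was at 2.97 FPKM at most.

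Relb, the partner of p52 (chromosome 7, 19606217 to 19629438, minus strand), had 2.38, 3.62 and 6.57 FPKM in the libraries labelled Gcgr shRNA (lowest, median and highest). In Ctr shRNA the values were 2.54, 4.16 and 5.25 FPKM, and the control libraries had 1.36, 1.74, 2.25 and 2.55 FPKM. The ranges overlapped in that Gcgr shRNA 31 and Ctr shRNA 19 lay below the highest control library, and all others lay above it. The SD of Relb was 37.7% of the mean in the libraries labelled Gcgr shRNA, the largest share among the 10 genes in that group, 22.9% in Ctr shRNA and 26.7% in control.

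Relb rose 1.67-fold in Ctr shRNA against control (0.74 ± 0.21, limma adjusted p = 0.0401), and the FPKM mean was 2.02 times that of control. In the libraries labelled Gcgr shRNA its difference from control was as large, at 0.76 ± 0.20, but did not pass (limma adjusted p = 0.0660). The call in Ctr shRNA was lost without any 1 of Ctr shRNA 1, 4, 6, 8 and 20 and control 37, 38 and 39, with limma adjusted p of 0.0538 to 0.134. The difference in the libraries labelled Gcgr shRNA passed without Gcgr shRNA 29 (limma adjusted p = 0.0489) and without Gcgr shRNA 31 (0.85, limma adjusted p = 0.0323). The limma calls for Relb therefore turn on single libraries in both comparisons, and the difference itself ranged from 0.64 to 0.85 over all libraries left out.

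Rela, the main activating subunit of the canonical arm (chromosome 19, 5637483 to 5648130, plus strand), had 17.8, 20.3 and 23.8 FPKM in the libraries labelled Gcgr shRNA (lowest, median and highest). In Ctr shRNA the values were 18.3, 19.8 and 26.1 FPKM, and the control libraries had 16.1, 16.9, 17.04 and 17.6 FPKM. Every shRNA library lay above every control library, by a narrow margin. The differences from control, 0.27 (95% interval 0.081 to 0.46) in the libraries labelled Gcgr shRNA and 0.26 (0.066 to 0.46) in Ctr shRNA, did not pass (limma adjusted p = 0.142 and 0.0944).

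Nfkb1, the precursor of p50 (chromosome 3, 135584655 to 135691547, minus strand), had 2.06 to 3.08 FPKM in the libraries labelled Gcgr shRNA, 2.12 to 3.51 in Ctr shRNA and 2.23 to 2.58 in control. The ranges overlapped throughout, and Gm43430, which overlaps Nfkb1 on the same strand, was at 0.0628 FPKM at most. On the log2(FPKM + 1) scale the differences of Nfkb1 from control were the smallest of the 10 genes, at 0.069 in the libraries labelled Gcgr shRNA and 0.13 in Ctr shRNA (limma adjusted p = 0.776 and 0.470). The FPKM means of Nfkb1 were 1.08 and 1.14 times that of control in the same order, and in Ctr shRNA Nfkbia was lower at 1.13 times. Without Ctr shRNA 20 the difference of Nfkb1 in Ctr shRNA was 0.070, and in the libraries labelled Gcgr shRNA it was 0.034 without Gcgr shRNA 35, 0.042 without Gcgr shRNA 29 and 0.10 without Gcgr shRNA 32. The remaining subunit gene, Rel, which lymphoid cells use most, stayed below the filter with group means of 0.472, 0.465 and 0.353 FPKM in the libraries labelled Gcgr shRNA, Ctr shRNA and control.

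Both inhibitors among the 10 genes had smaller differences from control than Nfkb2 and Relb, and neither passed. Nfkbia encodes IkB alpha, the inhibitor that is degraded first on stimulation and made anew on NF-kB activity (chromosome 12, 55489410 to 55492647, minus strand), and had 20.2, 24.3 and 31.2 FPKM in the libraries labelled Gcgr shRNA (lowest, median and highest). In Ctr shRNA the values were 17.1, 21.9 and 28.3 FPKM, and the control libraries had 16.3, 18.5, 19.9 and 24.1 FPKM. Control 41 lay above 3 of the 7 libraries labelled Gcgr shRNA and 5 of the 6 Ctr shRNA libraries. The difference from control was 0.29 in the libraries labelled Gcgr shRNA (95% interval 0.0068 to 0.57, limma adjusted p = 0.297) and 0.17 in Ctr shRNA (-0.12 to 0.46, limma adjusted p = 0.490). The difference of Nfkbia in Ctr shRNA was 0.0998 without Ctr shRNA 20, 0.085 without control 37 and 0.27 without control 41.

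Nfkbie encodes IkB epsilon, a slower acting inhibitor (chromosome 17, 45555703 to 45563169, plus strand), and had 1.65 to 2.65 FPKM in the libraries labelled Gcgr shRNA, 1.58 to 2.68 in Ctr shRNA and 1.26 to 1.88 in control, with ranges that overlapped. Its difference from control was 0.26 in the libraries labelled Gcgr shRNA and 0.19 in Ctr shRNA (limma adjusted p = 0.225 and 0.292), and in Ctr shRNA it was 0.13 without control 38. Tnfaip3 encodes A20, a ubiquitin editing enzyme that ends signalling from the tumour necrosis factor receptor (chromosome 10, 19000910 to 19015657, minus strand). It had 0.694, 1.06 and 1.51 FPKM in the libraries labelled Gcgr shRNA (lowest, median and highest), 0.902, 1.11 and 1.20 FPKM in Ctr shRNA, and 0.663, 0.747, 0.761 and 0.859 FPKM in the control libraries. All Ctr shRNA libraries lay above control, and of the others only Gcgr shRNA 34 lay within the control range. The differences from control, 0.24 in the libraries labelled Gcgr shRNA and 0.25 in Ctr shRNA, did not pass (limma adjusted p = 0.232 and 0.132). At these low levels the log2(FPKM + 1) scale understates a change, and the FPKM means of the libraries labelled Gcgr shRNA and of Ctr shRNA were 1.43 and 1.44 times that of control.

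Of the target genes among the 10, Icam1 had the larger difference from control. It encodes an adhesion molecule that binds leukocyte integrins and is a classical NF-kB target on endothelium and injured tubules (chromosome 9, 21015985 to 21028817, plus strand). The libraries labelled Gcgr shRNA 13, 15, 29, 31, 32, 34 and 35 had 8.97, 9.58, 6.65, 6.74, 8.10, 9.34 and 10.6 FPKM. Ctr shRNA libraries 1, 4, 6, 8, 19 and 20 had 10.5, 13.1, 9.23, 8.78, 7.57 and 7.74 FPKM, and control libraries 37, 38, 39 and 41 had 4.24, 4.25, 3.28 and 4.97 FPKM. All 13 shRNA libraries lay above all 4 control libraries, and the lowest of them was 6.65 FPKM against 4.97 FPKM in the highest control library.

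Icam1 rose 2.01-fold in Ctr shRNA against control (1.00 ± 0.14 SE, limma adjusted p = 0.000594) and 1.84-fold in the libraries labelled Gcgr shRNA against control (0.88 ± 0.14, limma adjusted p = 0.00263). By p it ranked 47th of 13279 genes in the first comparison and 40th in the second. It passed in all 29 alternative fits of each comparison, with differences of 0.79 to 1.02 in the libraries labelled Gcgr shRNA and 0.91 to 1.19 in Ctr shRNA. The antisense gene Gm47079 overlaps Icam1 by 511 bases and was at 0.0367 FPKM at most.

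Birc3, an apoptosis inhibitor and ubiquitin ligase that also restrains the noncanonical kinase (chromosome 9, 7848699 to 7873186, minus strand), had 1.71, 2.70 and 3.17 FPKM in the libraries labelled Gcgr shRNA (lowest, median and highest). In Ctr shRNA the values were 2.10, 2.35 and 2.87 FPKM, and the control libraries had 1.33, 1.64, 1.99 and 2.40 FPKM. Of the 7 libraries labelled Gcgr shRNA, 6 lay above all control libraries, and of the 6 Ctr shRNA libraries 3 did. The differences from control were 0.38 in the libraries labelled Gcgr shRNA and 0.27 in Ctr shRNA (limma adjusted p = 0.115 and 0.191), and that in Ctr shRNA was 0.18 without control 38. Without Gcgr shRNA 29, its lowest library, the difference of the libraries labelled Gcgr shRNA passed at 0.46 (limma adjusted p = 0.0290).

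Tnfrsf1b encodes TNFR2, a receptor for tumour necrosis factor found mainly on leukocytes and endothelium and induced in injured tubules (chromosome 4, 145213463 to 145246870, minus strand). It had 1.07, 1.73 and 2.99 FPKM in the libraries labelled Gcgr shRNA (lowest, median and highest). In Ctr shRNA the values were 0.988, 2.10 and 3.20 FPKM, and the control libraries had 1.03, 1.08, 1.11 and 1.35 FPKM. All shRNA libraries lay above control except Gcgr shRNA 32 and Ctr shRNA 19. The highest in each group were Gcgr shRNA 31 and Ctr shRNA 20. Of these, Ctr shRNA 20 stood apart by its fat and urothelial transcripts. The differences from control, 0.39 in the libraries labelled Gcgr shRNA and 0.50 in Ctr shRNA, did not pass (limma adjusted p = 0.271 and 0.0957). As for Tnfaip3, the scale understates a change at such levels, and the FPKM means were 1.62 and 1.83 times that of control. Without Ctr shRNA 19 the difference in Ctr shRNA passed at 0.62 (limma adjusted p = 0.0195), and without Gcgr shRNA 31 and Ctr shRNA 20 the differences were 0.30 and 0.40 and did not pass (limma adjusted p = 0.276 and 0.0968).

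Because a control hairpin and a vehicle cannot be told apart for Ctr shRNA, what the label Gcgr shRNA adds is not settled. The comparison of the libraries labelled Gcgr shRNA with Ctr shRNA sets these groups side by side within the disease label. No member and none of the tested genes passed in it by limma at an adjusted p of 0.05, nor by voom on the recovered reads, so the share of genes that rose was 0%, while 972 genes (7.32%) and none of the members had an unadjusted p below 0.05. The 10 differences ran from -0.13 (Icam1) to 0.12 (Nfkbia), 5 above and 5 below 0, with limma adjusted p of 0.866 to 0.986. The ranges overlapped for every member, and a full separation upward was seen in 0.105% of all genes. The 95% intervals of the members together spanned -0.43 to 0.40. Icam1 had 8.57 ± 1.48 FPKM in the libraries labelled Gcgr shRNA and 9.48 ± 2.06 FPKM in Ctr shRNA (SD, n = 7 and 6), and the interval of its difference ran from -0.39 to 0.14. Relb had 4.18 ± 1.57 and 3.99 ± 0.915 FPKM in the same groups, with an interval of -0.36 to 0.40, the widest of the 10 together with that of Tnfrsf1b. These intervals do not show that the groups are alike, and the upper limit for Relb was 1.32-fold on the log2(FPKM + 1) scale. Without Ctr shRNA 20 and Gcgr shRNA 31 the difference of Relb was 0.14, against 0.018 with all libraries, and the 10 differences ran from -0.13 (Icam1) to 0.18 (Nfkbia).

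Some libraries were the highest or the lowest of their group for several members. In Ctr shRNA, library 19 was lowest in 9 of 10 members, all but Rela, and library 4 was highest in 6 (Rela, Relb, Nfkb2, Nfkbie, Birc3 and Icam1). Library 20, with its fat and urothelial transcripts, was highest in Nfkb1, Nfkbia and Tnfrsf1b. In the libraries labelled Gcgr shRNA, number 35 was highest in Rela, Relb, Nfkb1, Nfkb2 and Icam1 and number 15 in Nfkbia, Tnfaip3 and Birc3. Measured from the control mean in log2(FPKM + 1), the median of the 10 members was 0.25 to 0.54 in the libraries labelled Gcgr shRNA, 0.13 (library 19) to 0.50 (library 4) in Ctr shRNA, and -0.037 to 0.018 in control.

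**Figure D3:**
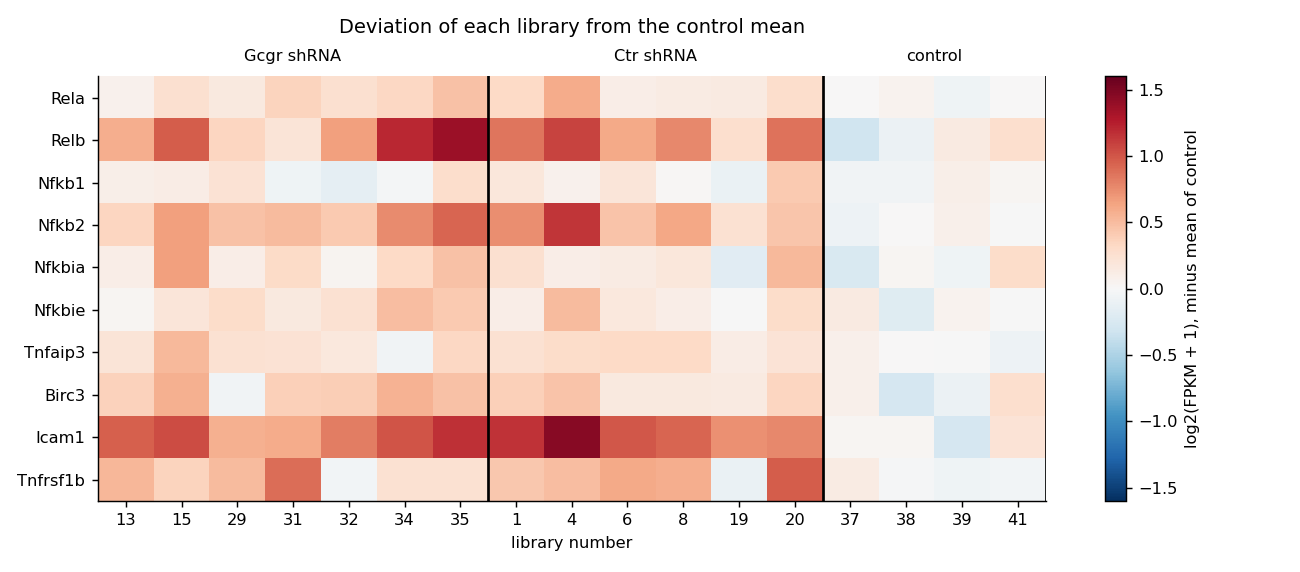
Log2(FPKM + 1) of each gene in each library minus the mean of the control libraries, as colour (red above, blue below), with libraries grouped from left to right as Gcgr shRNA, Ctr shRNA and control. Icam1, Nfkb2, Relb and Rela lie above the control mean in every library of both shRNA groups, and Ctr shRNA 19 is the palest of its group.

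The rest of the pathway was taken from role lists of 90 genes, 80 of them not among the 10. Of these 80, 58 passed the filter, and in Ctr shRNA against control 16 rose and 2 fell, a share of 27.6% rising where 3.58% of all genes rose. The share that fell (Plau and Ikbkb) was near that over all genes, of which 519 of 13279 fell. In the libraries labelled Gcgr shRNA against control 8 rose and none fell, a share of 13.8% where 1.42% of all genes rose. Between the shRNA groups no list gene passed, and the genes of smallest p in their lists included Irak2 at -0.17, Tab1 at 0.20, Cyld at 0.093, Nfkbib at 0.098, Map3k14 at -0.16 and Tnfsf12 at 0.16 on the log2(FPKM + 1) scale (limma adjusted p = 0.542 to 0.854). The lists were chosen with earlier results of these data known, so these shares describe them and test nothing. Of the 16 genes, 7 also passed with each of the 17 libraries left out in turn (C3, Ccl5, Cxcl10, Tlr2, Tlr3, Tnfrsf12a and Vcam1), and of the 8 genes C3 and Cxcl10 did.

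By role, 57.1% of 7 receptors, 50% of 20 targets, 20% of 5 inhibitors, 14.3% of 14 adaptors and 0% of 9 kinases and partners rose in Ctr shRNA against control, where 3.58% of all genes rose. No test compared the roles with each other. Of the 7 receptors tested, 4 rose in that comparison. Tlr2, a receptor for bacterial lipoproteins, had 3.26 ± 0.881 FPKM in Ctr shRNA and 0.852 ± 0.235 in control (2.28-fold on the log2(FPKM + 1) scale, limma adjusted p = 0.00086). Tnfrsf12a, the TWEAK receptor of the noncanonical arm, had 30.2 ± 12.5 FPKM in Ctr shRNA and 11.6 ± 3.48 in control (limma adjusted p = 0.00921). Tlr3, a sensor of double-stranded RNA, had 2.33 ± 0.288 FPKM in Ctr shRNA and 1.56 ± 0.0471 in control (limma adjusted p = 0.0106). Tnfrsf1a, the main receptor for tumour necrosis factor, had 31.6 ± 5.84 FPKM in Ctr shRNA and 22.6 ± 1.35 in control (limma adjusted p = 0.0219), a call lost without control 37, 38 or 39.

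The same 3 receptors passed in the libraries labelled Gcgr shRNA against control, each with calls that turned on single libraries. Tnfrsf12a had 30.4 ± 8.95 FPKM there (limma adjusted p = 0.0138, up to 0.0702 without control 37, 38 or 39). Tlr3 had 2.26 ± 0.297 FPKM (limma adjusted p = 0.0326) and lost its call without any control library or without Gcgr shRNA 13, 15, 29, 34 or 35 (up to 0.113). Tlr2 had 2.07 ± 0.74 FPKM (limma adjusted p = 0.0436) and lost its call without Gcgr shRNA 13, 15, 31 or 35, Ctr shRNA 1, 6 or 8, or any control library (up to 0.168). Between the shRNA groups Tlr2 differed by -0.48 (limma adjusted p = 0.442), so a difference between them was not shown.

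Of 20 targets tested, 10 rose and Plau fell in Ctr shRNA against control, and 6 rose in the libraries labelled Gcgr shRNA against control. Cxcl10, a chemokine for T cells that interferons also induce, had 8.12 ± 1.58 FPKM in the libraries labelled Gcgr shRNA, 7.57 ± 1.81 in Ctr shRNA and 0.987 ± 0.179 in control (limma adjusted p = 1.47e-07 and 2.64e-07 against control). C3, the central complement component, had 19.2 ± 7.81 FPKM in the libraries labelled Gcgr shRNA, 40.8 ± 11.6 in Ctr shRNA and 2.51 ± 0.467 in control (limma adjusted p = 4.57e-05 and 6.04e-07 against control). The difference in C3 between the shRNA groups, -1.08 on the log2(FPKM + 1) scale with an interval of -1.57 to -0.59, did not pass (limma adjusted p = 0.156). Vcam1, Ccl5 and Cxcl1, an adhesion molecule and a pair of chemokines, rose in both comparisons with control. Vcam1 and Cxcl1 had at most 0.764 and 0.432 FPKM in control, so they passed the filter only through the shRNA libraries, where they were high. In the libraries labelled Gcgr shRNA against control, Ccl5 and Cxcl1 (limma adjusted p = 0.0259 and 0.0265) lost their calls without Gcgr shRNA 13 or 35 or any control library. Vcam1 (limma adjusted p = 0.0462) lost its call there without any control library, any Gcgr shRNA library but 32, or Ctr shRNA 1, 6 or 8 (up to 0.155). Cxcl1 in Ctr shRNA lost its call without Ctr shRNA 1 or 4 or control 37, 38 or 39. Plau, the urokinase gene, fell to 134 ± 37.7 FPKM in Ctr shRNA, against 209 ± 15.4 in control (limma adjusted p = 0.0238), and lost its call without Ctr shRNA 4 or control 37, 39 or 41.

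Of the 5 inhibitors tested, 1 passed in Ctr shRNA against control. This gene, Bcl3, a nuclear member of the IkB family that can act as a coactivator with p50 or p52, had 6.34 ± 2.01 FPKM in the libraries labelled Gcgr shRNA, 7.02 ± 3.49 in Ctr shRNA and 3.01 ± 0.923 in control. It rose in Ctr shRNA (limma adjusted p = 0.0368), a call lost without Ctr shRNA 4, 6 or 20 or control 37, 38 or 39 (up to 0.139), and did not pass in the libraries labelled Gcgr shRNA (limma adjusted p = 0.0967). Of 9 kinases and partners, Ikbkb, the catalytic subunit of the canonical arm, fell to 3.25 ± 0.193 FPKM in Ctr shRNA, against 4.04 ± 0.241 in control (limma adjusted p = 0.0256, up to 0.0979 without Ctr shRNA 4 or control 37, 38 or 39). Ikbkb was at 3.63 ± 0.302 FPKM in the libraries labelled Gcgr shRNA and did not pass (limma adjusted p = 0.336). Of 14 adaptors, Traf2 and Birc2, partners of Birc3 in the complex that degrades the noncanonical kinase, rose in Ctr shRNA against control (limma adjusted p = 0.0238 and 0.0372). Traf2 lost its call without Ctr shRNA 4 or control 37 or 38 (up to 0.0971), and Birc2 without Ctr shRNA 1, 4, 8 or 20 or any control library (up to 0.126). Birc2 was at 7.35 ± 0.787 FPKM in the libraries labelled Gcgr shRNA, against 6.20 ± 0.397 in control, and did not pass (limma adjusted p = 0.142).

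Ligands were low, and only Ltb and Tnfsf12 of 9 passed the filter. Ltb, a lymphotoxin subunit, had 1.43 ± 0.856 FPKM in Ctr shRNA and 0.586 ± 0.217 in control and did not pass (limma adjusted p = 0.275). Tnfsf12, which encodes TWEAK, had 6.18 ± 1.19 FPKM in the libraries labelled Gcgr shRNA and 4.62 ± 0.52 in control (limma adjusted p = 0.274). Tnf itself averaged 0.177 FPKM in the libraries labelled Gcgr shRNA, 0.124 in Ctr shRNA and 0.176 in control, and was listed at 0 in 2 libraries. Of 7 deubiquitinases and feedback genes none passed, and the smallest p against control was that of Tnip1, a partner of A20, with 12.9 ± 1.71 FPKM in the libraries labelled Gcgr shRNA, 13.1 ± 1.596 in Ctr shRNA and 10.8 ± 0.859 in control (limma adjusted p = 0.231 and 0.121). Of the 8 genes of the noncanonical arm, Tnfrsf12a, Nfkb2 and Relb rose in Ctr shRNA, where 3.58% of all genes rose. Tnfrsf12a and Nfkb2 rose in the libraries labelled Gcgr shRNA, where 1.42% of all genes rose. Nfkb2 and Relb are members already described. The rest of the arm did not pass in either, with differences in Ctr shRNA of 0.017 (Chuk), 0.057 (Ltbr), -0.024 (Traf3), 0.13 (Map3k14) and 0.18 (Tnfsf12).

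**Figure D4:**
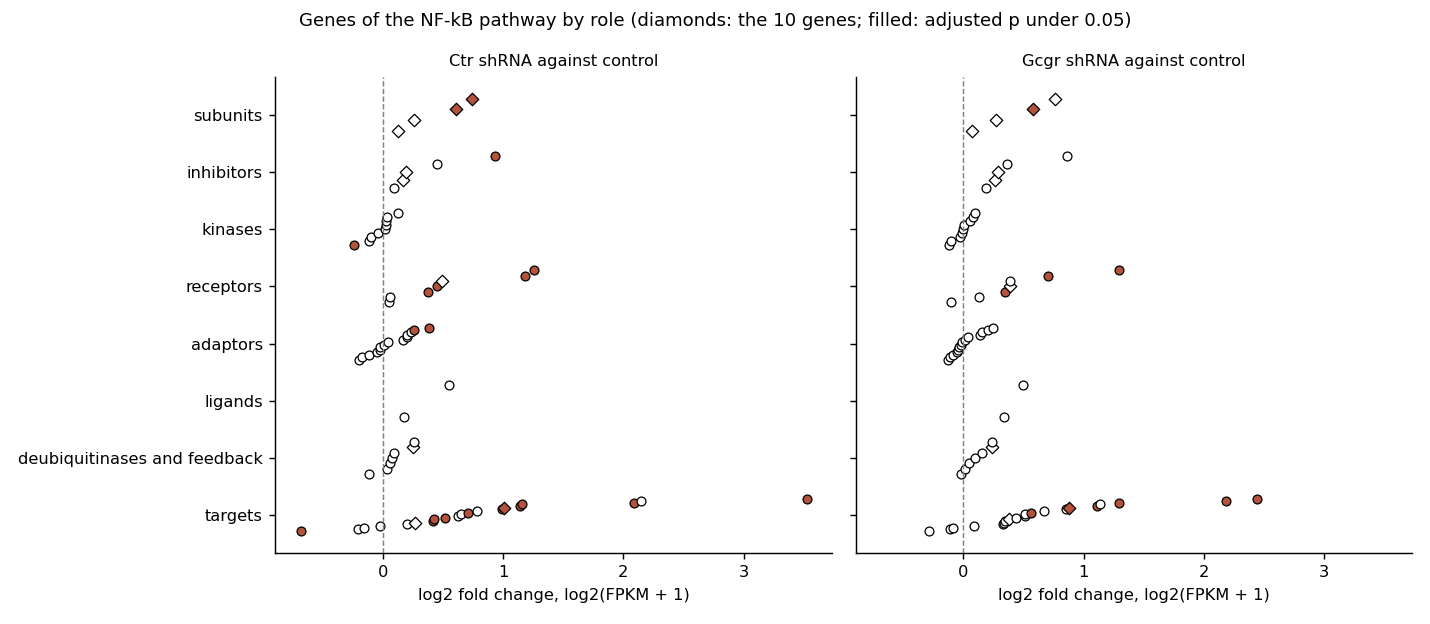
Log2 fold change against control of each tested gene of the NF-kB role lists, one row of points per role, for Ctr shRNA (left) and the libraries labelled Gcgr shRNA (right); diamonds are the 10 genes, and filled symbols passed an adjusted p of 0.05. Filled points include 10 of 20 targets and 4 of 7 receptors in Ctr shRNA, and C3 is farthest right at 2.44 in the libraries labelled Gcgr shRNA and 3.53 in Ctr shRNA.

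Several of these genes are also expressed by leukocytes and endothelium, and in bulk kidney RNA fewer cells of a type and less RNA per cell cannot be told apart. The summed FPKM of 12 macrophage markers was 284 to 450 in the libraries labelled Gcgr shRNA (median 359), 210 to 519 in Ctr shRNA (median 364) and 181 to 219 in control (median 209), and none of the 12 was at 0 throughout. Cd74 alone was the largest part of these sums, with medians of 222, 226 and 125 FPKM in the same order, so the sums mainly follow that gene. Of the 10 macrophage markers tested, 3 (Cd74, Lyz2 and Cd68) rose and 1, Csf1r, fell in Ctr shRNA against control. Of all 13279 genes, 475 rose and 519 fell in that comparison. Cd74, Lyz2 and Fcgr1 rose and none fell against control where the label says Gcgr shRNA, beside 189 of all 13279 genes that rose and 79 that fell. Ctr shRNA 19, lowest in 9 members, had the lowest macrophage sum of its group. It also had the lowest sums there of endothelial (81.4 FPKM), T and natural killer cell (1.48 FPKM) and B cell markers (0.438 FPKM). Its sum of proximal tubule markers was the highest of the group (32550.5 FPKM), and its neutrophil sum (6.81 FPKM) was not the lowest. The proximal tubule sum mainly follows 1 gene, Kap. In Ctr shRNA the median of Kap was 22358 FPKM, beside a median sum of 25340.5 FPKM. Ctr shRNA 6, with the highest macrophage sum, was highest in no member. The 10 endothelial markers summed to 93.97 to 129 FPKM in the libraries labelled Gcgr shRNA, 81.4 to 185 in Ctr shRNA and 108 to 116 in control, and none of them passed in any comparison. The 8 markers of T and natural killer cells summed to 1.62 to 4.32, 1.48 to 6.15 and 1.01 to 1.69 FPKM in the libraries labelled Gcgr shRNA, Ctr shRNA and control. Neutrophil markers summed to medians of 3.41 FPKM in the libraries labelled Gcgr shRNA, 3.14 in Ctr shRNA and 9.73 in control. Their ranges, 2.44 to 17.4, 0.848 to 9.48 and 3.45 to 24.4 FPKM in the same order, overlapped. Neither of the 2 neutrophil markers tested passed in any comparison. B cell markers summed to medians of 0.972, 1.52 and 0.977 FPKM in the same order of groups. Markers of fat cells and urothelium summed to 196 and 170 FPKM in Ctr shRNA 20, and to at most 16.8 and 5.32 FPKM in the other Ctr shRNA libraries. The part of these cell types in the results for the 10 genes was not tested. Of 8 proximal tubule markers, Miox alone fell in the libraries labelled Gcgr shRNA against control, where 79 of all 13279 genes fell. Miox, Slc27a2, Slc5a2 and Cubn fell in Ctr shRNA, where 519 of all 13279 genes fell.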

How the data were processed

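The authors deposited 1 table of FPKM per gene and library for the whole series, beside gene length and position, per the file headers. Per the labels' protocols, Trizol RNA went into a SMARTer mRNA-Seq library kit. Per the submitters' processing notes the build was GRCm38, also listed as mm10. Not given in the sources used here are the aligner, the counter, the annotation and any use of strand. The table held 42794 complete gene lines, and 1 incomplete line was left out. FPKM times gene length gave whole multiples of a step per library in 100% of values up to 200 steps (tolerance 0.05 of a step). The reads recovered in this way summed to 13997657 to 17107876 per library and set the counting precision. Chi-square over degrees of freedom was 6.61 to 68.9 for pairs of replicates, above sampling noise, and each library was counted as 1 replicate.

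The deposited FPKM were transformed to log2(FPKM + 1). Genes reaching 1 FPKM in 4 libraries or more were fitted with limma 3.58.1 (limma-trend, R 4.3.3) over all 17 libraries, with p adjusted by Benjamini-Hochberg over all 13279 genes (threshold 0.05). Fold changes come from this scale, and intervals are 95% confidence intervals. Gcgr was tested by exact permutation. The steps were tested on simulated data. Alternatives covered the pseudocount, filter, scaling, variance model, groups in the fit, voom on recovered reads and each library left out.

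All 10 members are named, with up to 3 passing genes of smallest p per role list and comparison, or the gene of smallest p where none passed. List genes named beyond this rule because their calls were counted (Tnfrsf1a, Plau, Vcam1, Ccl5, Cxcl1, Rel and Tnf), and the cell type markers named (Csf1r, Cd74, Lyz2, Cd68, Fcgr1, Miox, Slc27a2, Slc5a2 and Cubn), were chosen after their values were seen. The members and lists, and the motif GGAAATTCC, were chosen with earlier results of these data known. Promoter sequences come from RefSeq.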

Additional observations from a re-analysis of the deposited data

Results flagged for a closer look

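Birc3 in the library labelled Gcgr shRNA 29 was at 1.707 FPKM, and the next library of its group was at 2.631 FPKM. The gap was 0.632 of the range of the 7 libraries, above Dixon's critical value for a group of that size. In all, 33 groups of libraries were examined in this way, and chance flags about 1 in 20.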

How the results depend on the processing

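Each member was refitted under 29 alternatives per comparison, 12 settings and 17 libraries left out. Against control, all 10 members kept a difference above 0 throughout in both comparisons, and Icam1 passed in all 29. Nfkb2 passed in 28 fits of Ctr shRNA and in 20 of the libraries labelled Gcgr shRNA, and Relb in 19 and 4. The number of members called was 1 without a filter on low values, 1 with libraries rescaled to the same total and 5 with library quality weights in the libraries labelled Gcgr shRNA against control. With single libraries left out it was 1 to 4 there (4 without Gcgr shRNA 29, 1 without Gcgr shRNA 15, 34 or 35 or any control library) and 1 to 4 in Ctr shRNA against control (4 without Ctr shRNA 19, 1 without control 37). The number of genes called in Ctr shRNA against control was 994, or 597 without a filter, 2087 with quality weights and 458 to 1265 with single libraries left out (658 without Ctr shRNA 4, and 490, 480 and 458 without control 37, 38 and 39). In the libraries labelled Gcgr shRNA against control it was 268, or 155 without a filter, 1070 with quality weights, 438 with only the groups compared in the fit and 105 to 349 with single libraries left out (166 and 171 without Gcgr shRNA 13 and 35, and 136, 115 and 105 without control 37, 38 and 39). Voom on the recovered reads called 1066 genes in Ctr shRNA against control, 244 in the libraries labelled Gcgr shRNA against control and none between the shRNA groups. Between the shRNA groups 1 gene passed with a pseudocount of 0.1, 1 with only the groups compared, and 0 to 3 with single libraries left out (3 without Gcgr shRNA 13), while no member ever passed. Small differences changed sign there. Rela came to -0.033 with the same total, -0.00039 with quantile normalization, -0.018 with voom and -0.0015 without Ctr shRNA 20 and Gcgr shRNA 31, Relb to -0.018 with the same total and -0.017 with voom, and Nfkb1 to 0.022 without both libraries. With single libraries left out, Rela ranged from -0.024 to 0.076, Relb from -0.083 to 0.11, Nfkb2 from -0.10 to 0.077 and Tnfaip3 from -0.061 to 0.033. The cause was not tested. Exact tests planned for members below the filter were not run because all 10 passed it. No paired analysis was possible because the groups share no replicate numbers.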
